A study of Homo sapiens with 22 samples.

Results

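RNA recovered with the protein PSF was compared between 22Rv1 and LNCaP, a pair of established human prostate cancer cell lines. The 4 libraries of this comparison, of 22 samples in the series, were all RNA immunoprecipitation libraries (PSF-RIP), made by pulling PSF and its RNA out of a cell lysate with an antibody. They were 22Rv1 with DHT, 22Rv1 with vehicle, LNCaP with DHT and LNCaP with vehicle. DHT (dihydrotestosterone, the most potent natural androgen) was given at 10 nM for 24 h, and vehicle was ethanol. Before that, both lines had been kept in phenol-red free medium with charcoal-stripped serum, which is poor in steroids. The pull-down used an EZ-Magna RIP kit and the libraries an Agilent SureSelect target-enrichment kit, per the labels, so capture can set which RNAs are seen and how well. The 4 matching input libraries, of lysate RNA before the pull-down, showed for each gene whether the RNA itself differed between the lines. The series also holds a line labelled LTAD, a second LNCaP set and CLIP peak lists, which enter only as named below or were not used here.

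PSF, the product of SFPQ, is a nuclear RNA-binding protein of the DBHS family, which also holds NONO and PSPC1. DBHS proteins act in splicing, in transcription and in the retention of RNA in the nucleus, and they build paraspeckles on the long noncoding RNA NEAT1. 22Rv1 was derived from a xenograft that relapsed after castration and grows with little androgen. LNCaP was derived from a lymph node metastasis and depends on androgen. A RIP library counts what the antibody brings down together with RNA carried along, and no library with a control immunoglobulin was analysed here. A gene's PSF-RIP count therefore holds both its abundance in the line and its recovery with PSF.

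The PSF-RIP libraries held 5894375 (DHT) and 10439461 (vehicle) mapped reads in 22Rv1, against 4641602 (DHT) and 5568110 (vehicle) in LNCaP. The inputs were shallower, with 2410114 and 3014049 reads in 22Rv1 and 1743886 and 1831432 in LNCaP. For every gene symbol the transcript with the highest mean count was kept, which left 20243 genes, and 13593 of them had enough reads in PSF-RIP to be tested. Each line and treatment had 1 library. The DHT and vehicle libraries of a line are thus its 2 samples, and the labels name no separate cultures. The spread behind each p-value is what remains once both lines are given a common DHT effect. It may be technical, and it also holds any DHT response particular to a line. In these bulk samples, fewer cells of a type and less RNA per cell cannot be told apart. Luminal prostate markers were well covered, with 16 of 16 detected in 22Rv1 and in LNCaP and summed levels of 5243 to 5625 and 4278 to 6361 CPM (reads scaled to a common library total). The basal keratin KRT5 had 0 reads in both lines. Basal markers summed to 19.19 to 23.7 CPM in 22Rv1 and 81.0 to 93.6 CPM in LNCaP. Markers of stromal cells and leukocytes summed to 8.82 to 8.89 CPM in 22Rv1 and 43.3 to 65.5 CPM in LNCaP, and their part in any result was not tested.

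The PSF-bound RNA of the lines differed at most genes. By edgeR's quasi-likelihood test, with treatment as a factor and Benjamini-Hochberg adjustment over all 13593 genes, 8615 genes passed an adjusted p of 0.05, a background of 63.4% (66.6% at an unadjusted p under 0.05). Of these, 4540 (33.4%) were higher and 4075 (30%) lower in 22Rv1. A change of at least 2-fold was found for 2819 genes (20.7%) upward and 2158 (15.9%) downward in 22Rv1. Among the called genes, 351 had 0 reads in both LNCaP libraries and 106 had 0 reads in both 22Rv1 libraries. The median log2 fold change of all tested genes was 0.03. The scaling centres the fold changes, so a shift common to most genes would not show.

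The inputs showed the same difference for most of these genes. In the same test on the 4 inputs, 6358 of 11519 genes passed (55.2%, or 59.7% at an unadjusted p under 0.05), 3331 of them (28.9%) higher and 3027 (26.3%) lower in 22Rv1. At least 2-fold changes made up 18.3% upward and 14.9% downward. Of the 8615 genes called in PSF-RIP, 7246 could be tested in the inputs, and 5614 of those (77.5%) were called there in the same direction. A further 1490 had the same sign without passing, 135 had the opposite sign without passing, and 7 passed in the opposite direction. The other 1369 had too few input reads to be tested. Among called genes with at least 2-fold changes, 3481 of the 3707 that could be tested (93.9%) were called the same way in the inputs. Across 11489 genes tested in both, the PSF-RIP and input fold changes had a Pearson r of 0.96. This is a description across genes, which are not independent replicates. With more than 3 reads in each line and assay, the median absolute gap between both fold changes was 0.23 on the log2 scale (10864 genes).

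**Figure D1:**
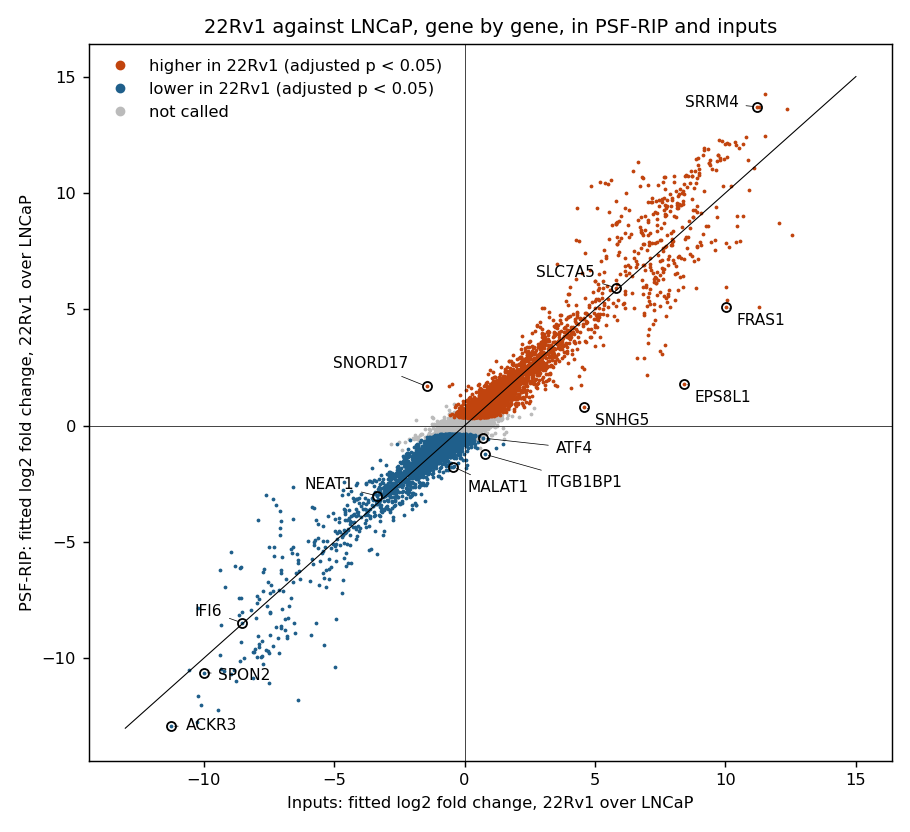
Each point is a gene tested in both assays; the vertical axis gives its fitted log2 fold change of 22Rv1 over LNCaP in PSF-RIP and the horizontal axis that in the inputs, with equal values on the diagonal and colour for the PSF-RIP call. Most genes lie along the diagonal, and EPS8L1, SNHG5, SNORD17, ITGB1BP1, ATF4 and MALAT1 are among those that lie off it.

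The genes that stood highest in 22Rv1 over LNCaP had no LNCaP reads over the exons of the transcript counted, to which all read counts and CPM here refer unless introns are named. Some had 1 or 2 LNCaP reads in introns in a PSF-RIP library, such as SRRM4 (2 with DHT) and FAM110B (1 with vehicle). SRRM4, a neural splicing factor linked to neuroendocrine prostate cancer, had 281 CPM with DHT and 376 CPM with vehicle in 22Rv1 PSF-RIP, against 0 reads in both LNCaP libraries. Its PSF-RIP level was at least 900-fold higher in 22Rv1, taking 3 reads over both LNCaP libraries as the floor, and the input level at least 176-fold higher. SV2A, a synaptic vesicle protein, had 292 CPM with DHT and 369 CPM with vehicle in 22Rv1 and was at least 900-fold higher. FAM110B, at 543 CPM with DHT and 441 CPM with vehicle in 22Rv1, was at least 1269-fold higher. RGS2, a brake on G-protein signalling, was at least 781-fold higher in PSF-RIP and at least 382-fold higher in the inputs. Others of the 15 genes highest by size in this direction were GPM6A, NPNT, ID4, ALB, GJA1, SCG3, FLRT2, FAM213A, CD44 and CACNA2D1, with lower bounds of 275-fold (CACNA2D1) to 384-fold (GPM6A). All 15 also had 0 exonic reads in the LNCaP inputs and passed there in the same direction. ALB, which encodes serum albumin, was uneven between the 22Rv1 libraries, with 53.2 CPM with DHT and 179 CPM with vehicle.

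At the other end, ACKR3, an atypical chemokine receptor, had 0 reads in both 22Rv1 PSF-RIP libraries, against 135 CPM with DHT and 228 CPM with vehicle in LNCaP. It was at least 748-fold lower in 22Rv1 PSF-RIP and at least 222-fold lower in the inputs. SPON2, a secreted matrix protein made by prostate cells, had 1.32 CPM with DHT and 0.796 CPM with vehicle in 22Rv1. LNCaP had 1689 and 1546 CPM, a log2 fold change of -10.61 ± 0.29 (adjusted p = 1.8e-10 by edgeR). Here and below, the value after ± is the size of the log2 fold change divided by the square root of edgeR's F. It is not a fitted standard error. Where a line has few reads, as for SPON2, PIK3CD and IFI6, it does not cover counting error. PIK3CD, a catalytic subunit of PI3 kinase, had 2 reads with DHT and 4 with vehicle in 22Rv1, against 537 and 559 in LNCaP (log2 -8.03 ± 0.27). DIO3, an enzyme that inactivates thyroid hormone, had 1 read in the 22Rv1 libraries together and 1141 in LNCaP, a level 1735-fold lower in 22Rv1 (95% exact counting interval 311 to 68580). NLRP2, a NOD-like receptor, had 1 read in 22Rv1 and 786 in LNCaP and was 1195-fold lower (214 to 47260). These intervals cover counting error only. The others of the 15 lowest were MAGEA10, PTPRM, PXDN, IRX4, IFI6, LGALS3BP, ATP11A, RAB25, EFS and PARP10. MAGEA10 belongs to a family of close copies that can share reads. All 15 were called in the same direction in the inputs, and IRX4, with 0 PSF-RIP reads in 22Rv1, had a log2 fold change of -6.39 there.

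Interferon-stimulated genes were lower in 22Rv1 almost throughout. These genes are switched on through a complex of STAT proteins and IRF9, which binds an element in their promoters, and they encode antiviral and antigen-presentation proteins. The lists here and below were chosen with earlier results of these data known, so their counts are a description and no test. Of 37 listed genes, 32 were tested in PSF-RIP. None rose and 30 fell in 22Rv1, against 33.4% and 30% of all genes, and the list's median log2 fold change was -3.40 against 0.03 for all genes. The median was -2.89 with DHT and -3.50 with vehicle. In the inputs 28 were tested, 26 fell and none rose, against 26.3% and 28.9% of all genes, and the median was -3.34. The 2 genes that did not pass in PSF-RIP were ISG20 (-0.13) and BST2 (0.23).

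IFI6, a mitochondrial survival protein induced by interferon, had 0.221 CPM with DHT and 1.06 CPM with vehicle in 22Rv1, against 143 and 346 CPM in LNCaP (log2 -8.47 ± 0.26, adjusted p = 1.8e-10). IFITM3, which blocks viral entry, had 6.62 CPM with DHT and 8.36 CPM with vehicle in 22Rv1, against 94.1 and 129 CPM in LNCaP (-3.90 ± 0.19). Every 22Rv1 value lay below every LNCaP value for both genes. IFI44 had 1 read in the 22Rv1 libraries together and 281 in LNCaP, a level 427-fold lower in 22Rv1 (76.1 to 16940). IFIT1, IFIT2 and OAS1, sensors of foreign RNA or makers of its signal, had 0 reads in 22Rv1 PSF-RIP and were at least 154-fold, 140-fold and 80.6-fold lower. STAT2, a part of the activating complex, had 35.5 CPM with DHT and 37.3 CPM with vehicle in 22Rv1, against 75.2 and 124.5 CPM in LNCaP (-1.43). HLA-B and HLA-C fell by 4.64 and 3.35 on the log2 scale. These class I genes are close copies of one another and differ in sequence between people, so unique mapping may place their reads unequally in each line. B2M, their common light chain, fell by 0.62.

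The element bound by the STAT-IRF9 complex can be shown in the promoters of these genes. RefSeq promoter sequences (build GRCh38.p14, 250 bases before to 50 after the start) were searched on both strands for GAAA, any 2 bases, then GAAA, overlaps allowed. Of the 32 tested members, 24 had a sequence and 16 of these (66.7%) held the motif, against 4.38% of 27305 genes. The members with and without it had median PSF-RIP log2 fold changes of -3.38 and -3.40. The 3 promoters below belong to called members with the motif and the smallest p, and capitals mark the motif on either strand.
IFI6 promoter, chr1:27672143-27672442: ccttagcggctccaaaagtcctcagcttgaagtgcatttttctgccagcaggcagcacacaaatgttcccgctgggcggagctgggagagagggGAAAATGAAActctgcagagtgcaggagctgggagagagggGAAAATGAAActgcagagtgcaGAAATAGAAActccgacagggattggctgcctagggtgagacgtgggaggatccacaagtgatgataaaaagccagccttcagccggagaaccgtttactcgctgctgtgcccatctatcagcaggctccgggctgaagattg
IFITM3 promoter, chr11:320811-321110: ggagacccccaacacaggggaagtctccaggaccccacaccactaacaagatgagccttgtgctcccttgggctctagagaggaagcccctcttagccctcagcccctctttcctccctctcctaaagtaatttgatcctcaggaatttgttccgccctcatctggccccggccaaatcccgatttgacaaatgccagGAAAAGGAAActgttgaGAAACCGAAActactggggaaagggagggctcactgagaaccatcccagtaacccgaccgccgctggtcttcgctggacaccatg
IFI44 promoter, chr1:78649539-78649838: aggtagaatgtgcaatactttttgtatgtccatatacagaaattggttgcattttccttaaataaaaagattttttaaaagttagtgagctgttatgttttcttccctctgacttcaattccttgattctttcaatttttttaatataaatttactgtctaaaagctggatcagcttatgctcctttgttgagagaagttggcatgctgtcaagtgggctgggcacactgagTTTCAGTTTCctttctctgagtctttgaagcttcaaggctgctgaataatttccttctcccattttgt
A match is a description of the letters and not of a bound site.

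Genes of DNA replication and mitosis ran the other way. Of 39 tested, 35 rose and 1 fell in 22Rv1, against 33.4% and 30% of all genes, with a median log2 fold change of 2.62, and 34 of the 35 were also called higher in the inputs (input median 2.41). TOP2A, the topoisomerase that untangles replicated chromosomes, had 300 CPM with DHT and 318 CPM with vehicle in 22Rv1 PSF-RIP, against 39.7 and 6.0 CPM in LNCaP (4.03). MKI67, the gene of the Ki-67 proliferation antigen, had 677 CPM with DHT and 665 CPM with vehicle in 22Rv1, against 164 and 21.4 CPM in LNCaP (3.37). Both genes were near level between the 22Rv1 libraries and lower with vehicle than with DHT in LNCaP. The list's median was 1.92 with DHT and 3.02 with vehicle, and the difference between these treatments was not tested. CCNE1, a cyclin of S-phase entry, was the gene that fell (-0.92). CDK1, CCND3 and RB1 did not pass, at 0.05, -0.28 and 0.30. DNA repair genes were more divided, with 12 higher, 7 lower and 7 not called of 26 (73.1% called, against 63.4% of all genes). MSH3 and MLH3 fell, to -0.80 and -1.0, while BRCA1 and FANCD2, which are also cell-cycle genes, rose by 2.41 and 3.33.

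Genes of the unfolded-protein and amino-acid stress responses were more often higher than lower in 22Rv1. The list holds chaperones of the endoplasmic reticulum, which fold secreted proteins, along with transcription factors, transporters and enzymes. Of 33 tested, 22 rose and 4 fell in PSF-RIP (median 0.93, against 0.03 for all genes, of which 33.4% rose and 30% fell), and 20 of the 22 were called higher in the inputs. HSP90B1, the chaperone GRP94, had 4123 CPM with DHT and 3240 CPM with vehicle in 22Rv1, against 583 and 394 CPM in LNCaP (2.93 ± 0.20). CRELD2 had 679 CPM with DHT and 508 CPM with vehicle in 22Rv1, against 58.3 and 39.4 CPM in LNCaP (3.61 ± 0.17). HSPA5, the chaperone BiP, rose by 2.49, PDIA4 by 3.0 and MANF by 2.93. The amino acid transporter SLC7A5 had the largest difference of the list, with 315 CPM with DHT and 339 CPM with vehicle in 22Rv1, against 3.05 and 7.61 CPM in LNCaP (5.92). The 4 genes that fell were ATF4, DDIT4, PHGDH and SESN2. XBP1 and ATF6, transcription factors of the response, did not pass, at -0.08 and 0.34.

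The promoters of some genes of this list hold the endoplasmic reticulum stress element, which is CCAAT, any 9 bases, then CCACG. It was found on either strand in 7 of the 31 tested members that had a promoter sequence (22.6%), against 0.0916% of 27305 genes. The 7 had a median PSF-RIP log2 fold change of 2.32, against 0.68 for the other members, and 6 of them were called higher in 22Rv1. The 2 promoters below are those with the smallest p among the 6, with the element in capitals.
CRELD2 promoter, chr22:49918384-49918683: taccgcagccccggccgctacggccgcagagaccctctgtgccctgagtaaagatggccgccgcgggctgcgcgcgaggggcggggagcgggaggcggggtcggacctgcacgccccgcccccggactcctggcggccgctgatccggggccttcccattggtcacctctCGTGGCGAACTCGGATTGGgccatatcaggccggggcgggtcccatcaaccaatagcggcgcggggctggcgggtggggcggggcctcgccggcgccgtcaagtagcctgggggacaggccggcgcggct
HSP90B1 promoter, chr12:103930160-103930459: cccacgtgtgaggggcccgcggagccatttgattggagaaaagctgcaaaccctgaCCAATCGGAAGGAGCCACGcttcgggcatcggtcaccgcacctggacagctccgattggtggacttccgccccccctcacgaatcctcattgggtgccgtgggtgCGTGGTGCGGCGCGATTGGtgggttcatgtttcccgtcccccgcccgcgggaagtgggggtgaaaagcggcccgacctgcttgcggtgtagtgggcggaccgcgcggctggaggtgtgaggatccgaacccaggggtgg
In HSP90B1 the element is present in both orientations.

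Sterol and fatty acid synthesis genes rose in 19 and fell in 1 of 26 tested genes, against 33.4% and 30% of all genes (median 0.85), and 18 of the 19 were called higher in the inputs. INSIG1, a sensor of sterols, rose by 2.02. ELOVL6, which lengthens fatty acids, rose by 2.47, while the desaturase FADS2 fell by 2.29. Targets of p53 fell in 12 and rose in 3 of 22 genes, against 30% and 33.4% of all genes (median -0.54, input median -0.83). SESN1 (-2.19), BTG2 (-1.96) and TIGAR (-1.86) were among those that fell. CDKN1A, the cell-cycle inhibitor p21, had 163 CPM with DHT and 116 CPM with vehicle in 22Rv1, against 187 and 282 CPM in LNCaP, and fell by 0.75. MDM2 did not pass (0.34).

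**Figure D2:**
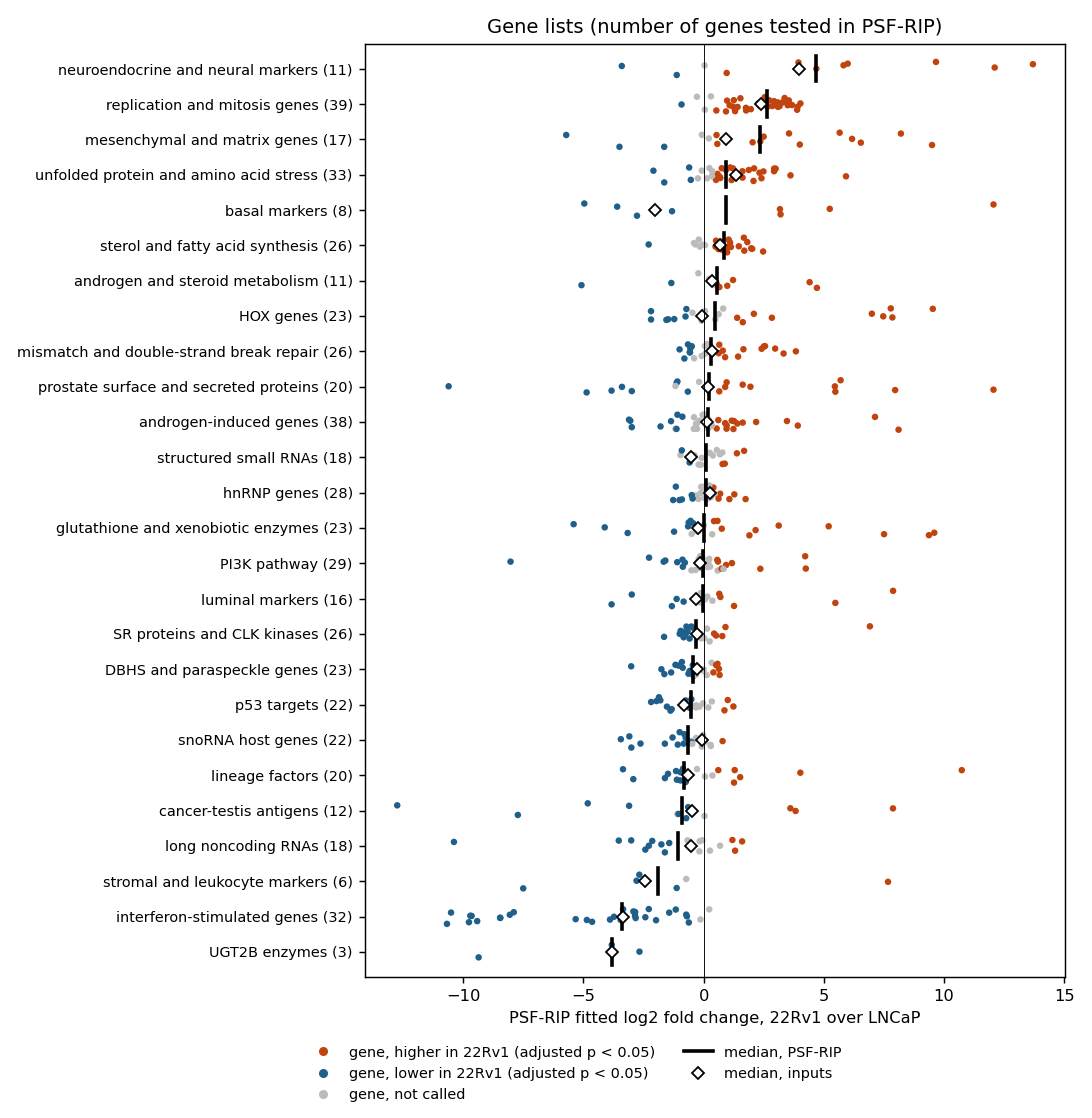
Each point is a gene of the named list, placed by its fitted PSF-RIP log2 fold change of 22Rv1 over LNCaP, with the list median in PSF-RIP as a bar and that in the inputs as a diamond. Interferon-stimulated genes lie almost wholly left of 0 and replication and mitosis genes almost wholly right, and the medians of both assays are close for most lists and farthest apart for basal markers and mesenchymal genes, where fewer genes could be tested in the inputs.

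Neuroendocrine and neural markers rose in 8 and fell in 2 of 11 tested genes, against 33.4% and 30% of all genes (median 4.69, and 3.98 in the inputs). SYP, the synaptic vesicle protein synaptophysin, rose by 3.94. The granin SCG3 had 0 reads in LNCaP and was at least 295-fold higher in 22Rv1, and CHGB at least 54.8-fold higher, although CHGB did not pass in DESeq2 (adjusted p = 0.055). Of the 9 neuroendocrine markers used to check the lines, 7 were detected in 22Rv1 and 6 in LNCaP, and INSM1 had 0 reads in both. Mesenchymal and matrix genes rose in 12 and fell in 3 of 17 (88.2% called, against 63.4% of all genes). LGALS1, a galectin, rose by 5.66, CTGF was at least 52.2-fold higher (not called in DESeq2, adjusted p = 0.085), and CDH2, N-cadherin, was 120-fold higher in 22Rv1 against 1 LNCaP read (21.3 to 4779). The 3 that fell included FN1, fibronectin, with 14.3 CPM with DHT and 13.9 CPM with vehicle in 22Rv1, against 646 and 842 CPM in LNCaP (-5.72), and vimentin, VIM (-1.64). Both directions thus occurred among genes that mark the same cell state.

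Lineage factors of the prostate fell in 11 and rose in 6 of 20 tested genes (85% called, against 63.4% of all genes). EHF, an epithelial ETS factor, fell by 2.93, and ETV1, an ETS oncogene that is rearranged in LNCaP, by 3.36. GATA2 fell by 1.48. ETV4 rose by 4.02, and NR3C1, the glucocorticoid receptor, had 37.3 CPM with DHT and 47.4 CPM with vehicle in 22Rv1 and 0 reads in LNCaP, at least 115-fold higher. The pioneer factors FOXA1 and HOXB13 did not pass, at -0.28 and 0.06. HOX genes rose in 9 and fell in 7 of 23 (69.6% called, near the 63.4% of all genes), with HOXC10 at least 49.1-fold higher and HOXC6 lower by 1.48 on the log2 scale, although both lie in one cluster on chromosome 12. Of the 3 tested UGT2B enzymes, which conjugate androgens for disposal, all 3 fell in both assays. UGT2B17 had 0 reads in 22Rv1 and was at least 62.3-fold lower, a call lost in DESeq2 (adjusted p = 0.066), and UGT2B15 had 1.54 CPM with DHT and 7.83 CPM with vehicle in 22Rv1, against 29.4 and 102 CPM in LNCaP. UGT2B15 and UGT2B17 are close copies that can share reads. UGT2B11, at -2.67, lost its call in DESeq2, without the treatment term and without either vehicle library, at -1.41 in each of these last fits.

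Androgen-induced genes were called at 60.5%, near the 63.4% of all genes, with 15 higher, 8 lower and 15 not called of 38 (median 0.19, or -0.02 with DHT and 0.46 with vehicle). KLK3, which encodes the prostate-specific antigen, had 50.3 CPM with DHT and 42.7 CPM with vehicle in 22Rv1 PSF-RIP, against 1057 and 127 CPM in LNCaP. It fell by 2.99 over both treatments, by 4.38 with DHT and by 1.56 with vehicle, and by 3.35 in the inputs. TMPRSS2, an androgen-driven surface protease, had 118 CPM with DHT and 74.3 CPM with vehicle in 22Rv1, against 813 and 65.3 CPM in LNCaP. Its fit over both treatments was -1.36, although with vehicle 22Rv1 stood slightly above LNCaP. FKBP5, a co-chaperone of steroid receptors, was higher in 22Rv1 by 2.18 (a call lost without the treatment term, at 2.19), with 2103 CPM with DHT and 273 CPM with vehicle, against 460 and 60.4 CPM in LNCaP. For KLK3 and TMPRSS2 the LNCaP libraries differed widely by treatment and the 22Rv1 libraries little, while FKBP5 was higher with DHT in both lines. Whether the line difference changed with treatment was not tested.

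Genes of the PI3K pathway were called at 55.2%, near the 63.4% of all genes, with 8 higher, 8 lower and 13 not called of 29 tested. The insulin receptor substrates IRS1 and IRS2 rose by 4.25 and 4.22, and the regulatory subunits PIK3R1 and PIK3R3 fell by 2.27 and 1.66, beside the fall of PIK3CD. AKT1 (0.27) and MTOR (0.16) did not pass. For the next lists the all-gene shares are again 33.4% higher and 30% lower. Cancer-testis antigens fell in 7 and rose in 3 of 12, 6 of the 10 being MAGEA genes, whose close copies can share reads. PRAME, a member outside that family, fell by 3.1. Glutathione and xenobiotic enzymes rose in 10 and fell in 8 of 23, with CYP1A1 at 5.20 and ALDH1A3 at -5.41. Prostate surface and secreted proteins rose in 10 and fell in 8 of 20. TMEFF2, a transmembrane protein of the prostate, rose by 5.70, and AMACR, a racemase used in diagnosis, fell by 3.40. Enzymes of androgen and steroid metabolism rose in 6 and fell in 2 of 11. Among them, HSD17B11 rose by 4.71. Luminal markers rose in 5 and fell in 5 of 16, basal markers rose in 4 and fell in 4 of 8, and stromal and leukocyte markers rose in 1 and fell in 4 of 6. The basal and the stromal and leukocyte lists here had 16 and 18 members. The summed levels given earlier used sets of 9 and 14.

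PSF's own gene and its partners differed far less. SFPQ (hg19 chr1:35649201-35658743) had 314 CPM with DHT and 298 CPM with vehicle in 22Rv1 PSF-RIP, against 415 and 420 CPM in LNCaP (log2 -0.45 ± 0.15, adjusted p = 0.019 by edgeR). The inputs, at 138 and 130 CPM in 22Rv1 and 158 and 162 CPM in LNCaP, did not pass (-0.26). The SFPQ call was lost without the 22Rv1 DHT library (-0.43), the 22Rv1 vehicle library (-0.37) or the LNCaP vehicle library (-0.35). NONO fell by 0.87 in PSF-RIP and by 0.84 in the inputs, and PSPC1 had 0.33 in PSF-RIP, without passing, and 0.78 in the inputs. Levels of PSF protein were not measured here. In the DBHS and paraspeckle list, 5 genes rose and 13 fell of 23, against 33.4% and 30% of all genes (median -0.43, input median -0.26). NEAT1 (hg19 chr11:65190269-65213009), the scaffold of paraspeckles, had 190 CPM with DHT and 231 CPM with vehicle in 22Rv1, against 1402 and 2045 CPM in LNCaP (-3.02 ± 0.18, adjusted p = 1.7e-08). Its input difference was -3.36, so NEAT1 was lower in 22Rv1 in both assays. The gap of 0.39 between them did not pass unpaired and passed in the paired fit described below (adjusted p = 0.003). Across the list such gaps leaned the other way, below 0 in 14 of 23 genes (60.9%, against 41.8% of all genes). SR proteins and CLK kinases rose in 5 and fell in 11 of 26 (median -0.33), with SRSF6 at -0.96 and TRA2B at 0.77, and hnRNP genes rose in 6 and fell in 6 of 28 (61.5% and 42.9% called, against 63.4% of all genes). Long noncoding RNAs rose in 3 and fell in 9 of 18 (66.7% called), with SCHLAP1 at -2.28 and PCAT6 at -3.53, both linked to prostate cancer.

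For some genes the fitted differences in PSF-RIP and input were not the same, and few of these gaps passed a test. The difference of differences, PSF-RIP minus input in 22Rv1 minus the same in LNCaP, was fitted over the 8 libraries. Of 13432 genes tested by edgeR, 1 passed (0.00744%), and 854 (6.36%) had an unadjusted p under 0.05, 581 of them positive. DESeq2 called 22 genes. PSF-RIP and input libraries were also paired by their line and treatment, since the DHT-minus-vehicle change of the line difference went together in both assays (r = 0.59 over 5757 genes). The labels do not say that a pair shares a lysate. With the pair as a block, which leaves 1 residual degree of freedom, 448 genes passed (3.34%), 310 higher (2.31%) and 138 lower (1.03%) in 22Rv1. Adjusted p-values below are from that paired fit, unless stated, and the unpaired test is named where it called the gene.

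MALAT1 (hg19 chr11:65265233-65273983), an abundant nuclear long noncoding RNA, took 2.47% (DHT) and 3.02% (vehicle) of gene reads in 22Rv1 PSF-RIP, against 9.41% and 9.31% in LNCaP. In the inputs it took 1.21% and 1.44% in 22Rv1 and 2.11% and 2.17% in LNCaP. These shares are of all gene reads before scaling, mitochondrial ones among them. The fitted differences use scaled reads, so the input shares differ by more than the fit. The PSF-RIP difference was -1.76 and the input difference -0.45, and the gap between them -1.27 ± 0.24 in the unpaired fit (unadjusted p = 0.00022, paired adjusted p = 4.9e-09). ATF4 (hg19 chr22:39916564-39918691), the transcription factor of the integrated stress response, went opposite ways. In PSF-RIP it had 142 CPM with DHT and 171 CPM with vehicle in 22Rv1, against 215 and 236 CPM in LNCaP (-0.54, adjusted p = 0.0054 for the PSF-RIP difference alone). In the inputs it had 212 and 199 CPM in 22Rv1, against 126 and 124 CPM in LNCaP (0.72). The lines did not overlap in either assay. The PSF-RIP call of ATF4 was lost without the 22Rv1 DHT (-0.44), 22Rv1 vehicle (-0.53) or LNCaP DHT (-0.44) library.

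Only 2 genes with at least 2-fold changes in PSF-RIP were called in the opposite direction in the inputs, ITGB1BP1 and SNORD17. ITGB1BP1 (hg19 chr2:9545810-9563305), an adaptor of integrins, had 21.8 CPM with DHT and 24.9 CPM with vehicle in 22Rv1 PSF-RIP, against 51.9 and 57.9 CPM in LNCaP (-1.23). Its inputs had 37.2 and 28.9 CPM in 22Rv1, against 18.7 and 19.6 CPM in LNCaP (0.78). SNORD17 is a box C/D small nucleolar RNA, a class that guides methylation of other RNAs. It had 58 reads with DHT and 93 with vehicle in 22Rv1 PSF-RIP, against 18 and 13 reads in LNCaP (1.68 ± 0.32). In the inputs it had 5 and 6 reads in 22Rv1, against 11 and 13 in LNCaP (-1.44). These are small counts, and the gap of 3.18 had a paired adjusted p of 0.00021. The sequence of SNORD17, read from GRCh37 (the build of the files, hg19) at the interval the files give on the minus strand, is shown with its C box near the start and its D box near the end in capitals.
SNORD17, chr20:17943353-17943589: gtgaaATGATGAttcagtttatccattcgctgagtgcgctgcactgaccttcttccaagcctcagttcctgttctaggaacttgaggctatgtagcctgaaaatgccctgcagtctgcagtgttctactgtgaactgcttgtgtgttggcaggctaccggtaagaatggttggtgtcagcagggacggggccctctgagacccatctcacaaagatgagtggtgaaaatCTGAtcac
Of the other 5 genes of this kind, CYP2R1 and LRRC75A-AS1 had PSF-RIP differences of -0.97 and -0.43 and input differences of 1.22 and 0.56. The PSF-RIP call of LRRC75A-AS1 was lost without the treatment term (-0.42) and without any 1 of the 4 libraries (-0.49 to -0.28). C6orf48 and RNVU1-8, both near the threshold in PSF-RIP, lost their calls in 10 and 7 alternatives. The 5th was ATF4.

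**Figure D3:**
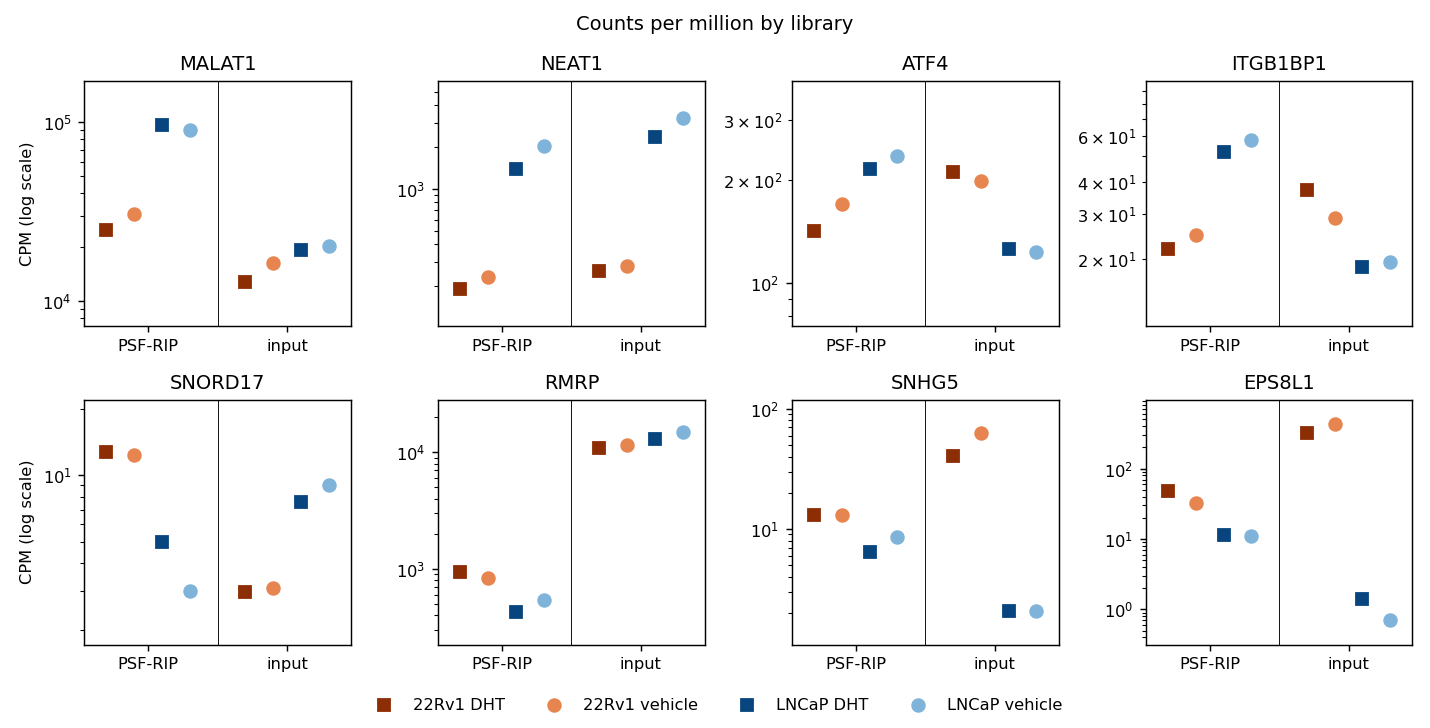
Level in CPM in each library, on a log scale, for 8 genes whose PSF-RIP and input differences are described in the text, with 22Rv1 in orange tones, LNCaP in blue, DHT as squares and vehicle as circles. NEAT1 is lower in 22Rv1 in both assays, while ATF4, ITGB1BP1 and SNORD17 change sides between PSF-RIP and input.

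Structured small RNAs as a list, with SNORD17 among them, leaned upward in PSF-RIP relative to input. Of 18 tested, 4 rose and 2 fell in PSF-RIP (33.3% called, against 63.4% of all genes), with a list median of 0.09. The inputs had 2 higher and 9 lower of 16, against 28.9% and 26.3% of all genes (median -0.54). The difference of differences was above 0 in 13 of 18, against 7824 of 13432 genes in all, with a median of 0.47 against 0.08 for all genes. The paired fit called 5 higher and 1 lower, against 2.31% and 1.03% of all genes. RMRP, the RNA of RNase MRP, had 949 CPM with DHT and 837 CPM with vehicle in 22Rv1 PSF-RIP, against 430 and 545 CPM in LNCaP (0.88). Its inputs did not pass, with 10890 and 11480 CPM in 22Rv1 and 13130 and 14860 CPM in LNCaP (-0.32). SNORA73B, a box H/ACA small nucleolar RNA, had 24.3 CPM with DHT and 33.7 CPM with vehicle in 22Rv1 PSF-RIP, against 27.8 and 21.2 CPM in LNCaP, without a call (0.26). Its inputs had 24.2 and 26.9 CPM in 22Rv1, against 94.7 and 90.2 CPM in LNCaP (-1.85). SNORA73B lies in an intron of SNHG3, whose spliced RNA fell alike in both assays (-3.01 and -3.06). SCARNA10 had 0.79 in PSF-RIP, a call lost after thinning (0.49), and -0.37 in the inputs.

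Host genes of small nucleolar RNAs leaned the other way. Their spliced RNAs are short-lived noncoding or ribosome-bound transcripts that carry the small RNAs in their introns. In PSF-RIP 1 rose and 13 fell of 22 tested (63.6% called, against 63.4% of all genes), with a list median of -0.66. The inputs had 4 higher and 7 lower of 21, against 28.9% and 26.3% of all genes (median -0.08). The difference of differences was below 0 in 18 of 22 (81.8%, against 41.8% of all genes), with 8 at an unadjusted p under 0.05 (2.03% of all genes in that direction). None passed unpaired over all genes, and the paired fit called 6 lower and none higher, against 1.03% and 2.31% of all genes. This lean was not particular to host genes. It was below 0 in 14 of 23 DBHS and paraspeckle genes, with 6 lower and 1 higher in the paired fit. Among hnRNP genes it was below 0 in 19 of 28, with 5 lower and 1 higher in that fit. The all-gene shares just given hold for both lists. SNHG5 (hg19 chr6:86386725-86388451) had 13 CPM with DHT and 13 CPM with vehicle in 22Rv1 PSF-RIP, against 6.38 and 8.53 CPM in LNCaP (0.79). Its inputs had 40.2 and 63 CPM in 22Rv1, against 2.07 and 2.1 CPM (3 reads each) in LNCaP (4.57). SNHG5 was named after its values were seen, and its PSF-RIP call was lost in 6 alternatives, among them DESeq2 (0.81) and thinning (0.59). GAS5 had 0.29 in PSF-RIP, without passing, and 1.24 in the inputs, and SNHG6 had 0.30 and 1.44. SNHG15 was at -0.31 in PSF-RIP and 1.17 in the inputs, and SNHG3, SNHG4, SNHG19 and DANCR fell alike in both.

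EPS8L1 (hg19 chr19:55587221-55599291), an actin-regulating adaptor, was the 1 gene called unpaired. It had 47.6 CPM with DHT and 32.9 CPM with vehicle in 22Rv1 PSF-RIP, against 11.4 and 11.1 CPM in LNCaP (1.81). The inputs had 324 and 435 CPM in 22Rv1, against 1.38 CPM (2 reads) and 0.699 CPM (1 read) in LNCaP (8.4). The gap was -6.61 (unpaired adjusted p = 0.00012), and the call was lost with all 12 libraries in 1 model (-6.91). Fits with 1 library left out start from that model. Their gaps (-13.77 to -5.26) therefore cannot show whether the call rested on 1 library. Its PSF-RIP call was also lost in the 12-library model (1.91), so the same holds there. Of the other genes named by size of the gap, GRIN2D, DOPEY2, CCDC18, SNAPC4 and RBM41 were positive, at 2.77, 1.40, 1.29, 1.16 and 1.10. FRAS1, ZNF681, TSPOAP1, DUT and TCEAL9 were negative, at -6.16, -5.89, -1.79, -1.29 and -1.23. FRAS1 and ZNF681 had 0 input reads in LNCaP, so their fitted gaps are no measure of size. ZNF681 did not pass in the paired fit (adjusted p = 0.076).

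Reads in introns, which mark unspliced RNA, mostly followed those in exons. Among 6822 tested genes with at least 200 intronic reads in PSF-RIP, intronic and exonic differences had a Pearson r of 0.81 across genes. Of 1861 genes called with at least 2-fold exonic changes, 1716 (92.2%) had an intronic difference of the same sign. B3GNT3 and GNAL ranked highest by the excess of the intronic over the exonic difference, at 5.80 and 5.78 on the log2 scale. GNAL had an intronic difference of 0.33 and an exonic one of -5.45. B3GNT3 had 2274 intronic reads with DHT and 3574 with vehicle in 22Rv1 and 0 in LNCaP. The lowest ranks went to MAGEA10-MAGEA5, a readthrough annotation that spans MAGEA10, and SLC25A43. Overlapping genes can give intronic reads to one another.

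The line difference also varied by chromosome. Of all genes tested in PSF-RIP, 33.4% were called higher and 30% lower in 22Rv1. Genes of chromosome 12 had a median PSF-RIP log2 fold change of 0.49, with 52.8% called higher and 17.4% called lower. Those of chromosome 7 had 0.43, with 47.2% higher and 16.4% lower. Chromosome 8 stood at 0.31. The lowest medians were on chromosomes 21 (-0.48, with 14.9% higher and 48.9% lower), 14 (-0.23) and X (-0.23). The inputs gave 0.49, 0.38 and 0.20 for chromosomes 12, 7 and 8, and -0.52, -0.26 and -0.18 for 21, 14 and X. Chromosomes 12, 7 and 21 thus kept their places in both assays. In the inputs, chromosomes 13, 4 and 6 (0.27, 0.27 and 0.25) lay above 8. Chromosomes 20, 17, 22, 11 and 16 (-0.29, -0.27, -0.26, -0.20 and -0.184) lay below X there, as did 21 and 14. Transcripts of the mitochondrial genome rose in 17 of 21 tested genes and fell in none, against 33.4% and 30% of all genes (median 0.97, and 0.85 in the inputs). They took 0.623% (DHT) and 1.00% (vehicle) of gene reads in 22Rv1 PSF-RIP, against 0.367% and 0.460% in LNCaP. In the inputs they took 19.7% (DHT) and 24.7% (vehicle) in 22Rv1, against 11.5% and 13.5% in LNCaP.

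**Figure D4:**
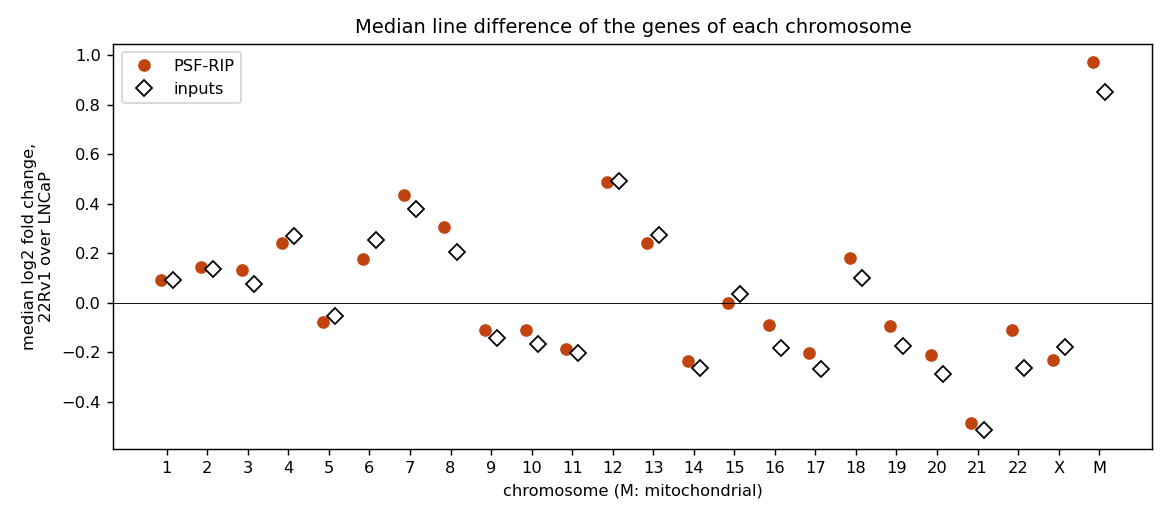
Median fitted log2 fold change of 22Rv1 over LNCaP for the tested genes of each chromosome, in PSF-RIP (filled circles) and inputs (open diamonds). Of the nuclear chromosomes, 12 and 7 lie highest and 21 lies lowest in both assays.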

How the data were processed

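The authors deposited, for each RIP and input library, a table of read counts per RefSeq feature (genes, introns and antisense intervals) on hg19, per the file headers; TopHat2 2.1.0, Bowtie2 2.2.6 and Bowtie are named in the submitters' processing notes. Files list only features with at least 1 read, so a missing feature was read as 0. Groups came from the labels. Each symbol is represented by its most counted transcript in the 4 PSF-RIP libraries, and 51 symbols at the same locus as another were dropped. Counts were tested as deposited with edgeR 4.0.16 in R 4.3.3, with TMM scaling, edgeR's low-count filter and terms for treatment and line. The 4 PSF-RIP libraries and the 4 inputs had a fit each, both with 1 residual degree of freedom. The difference of differences was fitted over the 8 libraries, unpaired, and again paired by line and treatment. CPM values use the TMM-scaled reads of the chosen transcripts. Each log2 fold change is the fitted one. Where a line had 0 reads in both libraries, the fold was bounded by taking 3 reads for that line. Where it had 1 to 3, the ratio has an exact 95% counting interval. Intronic differences are means over treatments of log2 values with a prior of 2 reads. On simulated data the PSF-RIP test recovered 95% of changes of log2 1, the input test 96% and the difference of differences 57%. False calls numbered 14, 10 and 11. The changed genes, 100 of each size, were all at or above the median level, and no DHT effect was simulated. These shares thus do not describe genes with low counts or data in which most genes differ.

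Genes were named by rule: SFPQ, NONO, PSPC1, NEAT1, MALAT1 and KLK3, the 15 highest and 15 lowest called genes and the 8 highest and 8 lowest gaps between assays (unadjusted p under 0.01), each at or above the median level and of 1 sign in both treatments, and up to 6 called members per list. Other members of the 26 lists were named from those lists, after their values were seen. The members and lists were chosen with earlier results of these data known. Genes of chromosome Y and XIST were tested and not printed, and some other genes that the rule names are not reported here. The second LNCaP set, with 12 columns of values, and the CLIP peaks were not used here. Alternatives were other scaling (DESeq2 1.42.0), other filters, no treatment term, all 12 libraries in 1 model, another transcript choice, thinning and the paired fit. The 12-library model adds the LTAD libraries. Each library was also left out in turn, from the 12-library model and not from the main fit.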

Additional observations from a re-analysis of the deposited data

Results flagged for a closer look

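For 2 of the genes named by rule and reported here, the line difference in PSF-RIP pointed one way with DHT and the other with vehicle. There was 1 library behind each value. SNORA73B stood at -0.19 with DHT and 0.66 with vehicle, and SNAPC4 at 0.11 with DHT and -0.094 with vehicle. Neither difference between treatments was tested. No group had enough libraries to look for a single library far from the others.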

How the results depend on the processing

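The number of PSF-RIP calls was 6664 with PSF-RIP thinned to the input totals, 9332 without a low-count filter, 7072 with DESeq2, 7337 without the treatment term (no replicate block) and 6265 to 7185 with 1 library left out. In the inputs it was 3639 with DESeq2 and 4505 to 5103 with 1 library left out, the last set of fits chosen after seeing the data. In the paired fit (replicate block) the difference of differences gave 448 calls, against 22 in DESeq2, 0 with all 12 libraries in 1 model, with 806 genes at an unadjusted p under 0.05 there, and 0 to 1 with 1 library left out. The fits with 1 library left out start from the 12-library model, which called 8421 genes in PSF-RIP and 6872 in the inputs. The share of calls found the same way in the inputs was 82.4% after thinning and 81.2% at an unadjusted p under 0.05 in the inputs. Genes called both in the main PSF-RIP test and in an alternative had the same sign in each. Of the named genes, SNAPC4 turned to -0.023 with at least 50 reads on average and ranged from -0.0496 to 0.17 with 1 library left out, and SNORA73B from -0.041 to 0.64. The gap between assays for NONO turned to -0.048 with DESeq2's size factors, -0.049 in DESeq2 and -0.018 with at least 50 reads, and ranged from -0.14 to 0.25 with 1 library left out. For KLK3 it ranged from -1.16 to 1.78 (1.775 without the 22Rv1 vehicle input). The causes were not tested. Inputs are shallower than PSF-RIP, and small RNAs had few reads.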
